A study of Mus musculus with 8 samples.

Results

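The prostaglandin and leukotriene genes examined here make, release or sense the lipid mediators derived from arachidonic acid. They were chosen by name, as rows of the array that name exactly 1 of the 10 symbols Ptgs1, Ptgs2, Ptges, Ptgds, Hpgds, Ptgis, Ptger4, Alox5, Alox5ap and Ltc4s. A row was found for 9 of the 10, out of 19752 genes with such a row, and all 9 passed the filter on dim rows. Ptgs1, the constitutive cyclooxygenase, had no row naming it alone among the rows used and is not analysed here.

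The samples are RNA of the tibialis anterior, a muscle of the lower leg, taken whole from male C57BL/6 mice on day 8 of recovery from a freezing injury (a metal probe cooled in liquid nitrogen). The 4 ST2 FL/Foxp3-Cre samples (ST2 flox) carry a floxed allele of ST2, the receptor for interleukin-33, together with Foxp3-Cre, which is expressed in regulatory T cells. The 4 ST2 WT/Foxp3-Cre samples (ST2 WT) carry the same Cre with an intact ST2 allele, so all 8 samples share the Cre and the injury. Mice were 10 weeks old per the sample labels and 2 months old per the series description. No uninjured muscle is among the samples, and whether each sample is a separate animal is not stated. The floxed gene itself had no row among those used, so the deletion was not checked here.

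Phospholipase A2 frees arachidonic acid from membranes. Cyclooxygenases turn it into prostaglandin H2, from which separate synthases make prostaglandin E2, prostaglandin D2 and prostacyclin. In the other branch 5-lipoxygenase, helped by its activating protein, makes leukotriene A4, the precursor of leukotriene B4 and of the cysteinyl leukotrienes. In injured muscle these mediators are known for drawing in leukocytes, and prostaglandin E2 is known to act on muscle stem cells through the receptor encoded by Ptger4.

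Promoters of 7 of the 9 measured members were found in RefSeq sequence of GRCm38.p6, each running from 250 bases before the annotated start to 50 after it. Of these, 3 are printed, 5′ to 3′ on the strand of the gene: those of Ptgs2, the member with the largest positive difference, Hpgds, which followed Ptgs2 from array to array, and Ltc4s, the member with the lowest difference. Capitals mark matches, on either strand, to the motifs searched, which were TATAAA (the TATA box), CCAAT (bound by NF-Y), CACGTG (the E-box), TGACG (the core of the cyclic AMP response element), GGGCGG (the GC box bound by Sp factors) and GGAAGT (a core bound by Ets factors).
Ptgs2 (chr1:150099781-150100080, plus strand): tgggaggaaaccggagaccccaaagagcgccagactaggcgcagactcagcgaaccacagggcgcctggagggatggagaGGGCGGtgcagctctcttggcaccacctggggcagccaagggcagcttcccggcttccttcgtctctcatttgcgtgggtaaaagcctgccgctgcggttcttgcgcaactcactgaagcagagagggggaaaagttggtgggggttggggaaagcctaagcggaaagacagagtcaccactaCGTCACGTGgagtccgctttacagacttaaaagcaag
Hpgds (chr6:65144681-65144980, minus strand): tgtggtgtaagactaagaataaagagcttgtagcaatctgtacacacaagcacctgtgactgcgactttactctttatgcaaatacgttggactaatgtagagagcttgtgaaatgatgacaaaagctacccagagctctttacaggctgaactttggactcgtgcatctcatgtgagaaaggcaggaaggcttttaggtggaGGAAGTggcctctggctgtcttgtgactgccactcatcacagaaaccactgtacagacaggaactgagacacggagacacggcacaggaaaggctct
Ltc4s (chr11:50238483-50238782, minus strand): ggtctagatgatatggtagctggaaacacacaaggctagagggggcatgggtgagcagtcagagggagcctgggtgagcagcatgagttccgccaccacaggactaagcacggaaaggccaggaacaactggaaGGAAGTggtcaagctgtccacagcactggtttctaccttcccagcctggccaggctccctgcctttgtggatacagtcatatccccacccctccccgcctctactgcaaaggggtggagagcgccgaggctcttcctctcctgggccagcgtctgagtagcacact
In the Ptgs2 window the E-box begins at base 17 after the annotated start and overlaps a match to TGACG that begins at base 14. Among the 7 promoters only that of Ptgs2 held the E-box, found in 7.15% of all 32851 promoters in the table, or TGACG, found in 20.8%. GGAAGT was in the windows of Hpgds and Ltc4s and in 23.8% of all promoters. GGGCGG was in 4 of the 7 windows (35.7% of all), CCAAT in that of Ptger4 alone (37.4% of all) and TATAAA in 0 of the 7 (13.6% of all). A match is a description of these letters, and a missing match says only that the letters are not in the window.

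The arrays were alike in overall signal, with median intensities of 185 to 189, and skeletal muscle genes such as Acta1, Ckm and Ttn were bright on all 8. A fit across all 15007 genes tested called 0 genes (0.0%) between ST2 flox and ST2 WT at a limma adjusted p under 0.05. An unadjusted p under 0.05 was seen for 569 genes (3.79%), and the groups did not overlap for 295 (1.97%). WT array 4 stood apart for skin keratins, with a centred mean over the keratinocyte list of 1.42, against -0.20 to -0.12 on the other WT arrays and -0.47 to 0.06 on the flox arrays.

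Of the 9 members, 0 passed the adjusted threshold, 1 (Ptgs2, higher in flox) had an unadjusted limma p under 0.05, and 0 had groups that did not overlap. Among all genes, an unadjusted p under 0.05 with a higher mean in flox was seen for 2.03% and with a lower mean for 1.77%. The mean was higher in flox for 7 members and lower for 2, Ptgds and Ltc4s, against a higher mean for 48.8% of all genes tested. The differences lay between -0.11 and 0.33 log2 with a median of 0.05, and the median over all genes was within 0.01 of 0. None of them is called a change here. Levels are given as log2 of the deposited intensity. Each difference is the flox mean less the WT mean, with the standard error (SE) from limma.

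**Figure D1:**
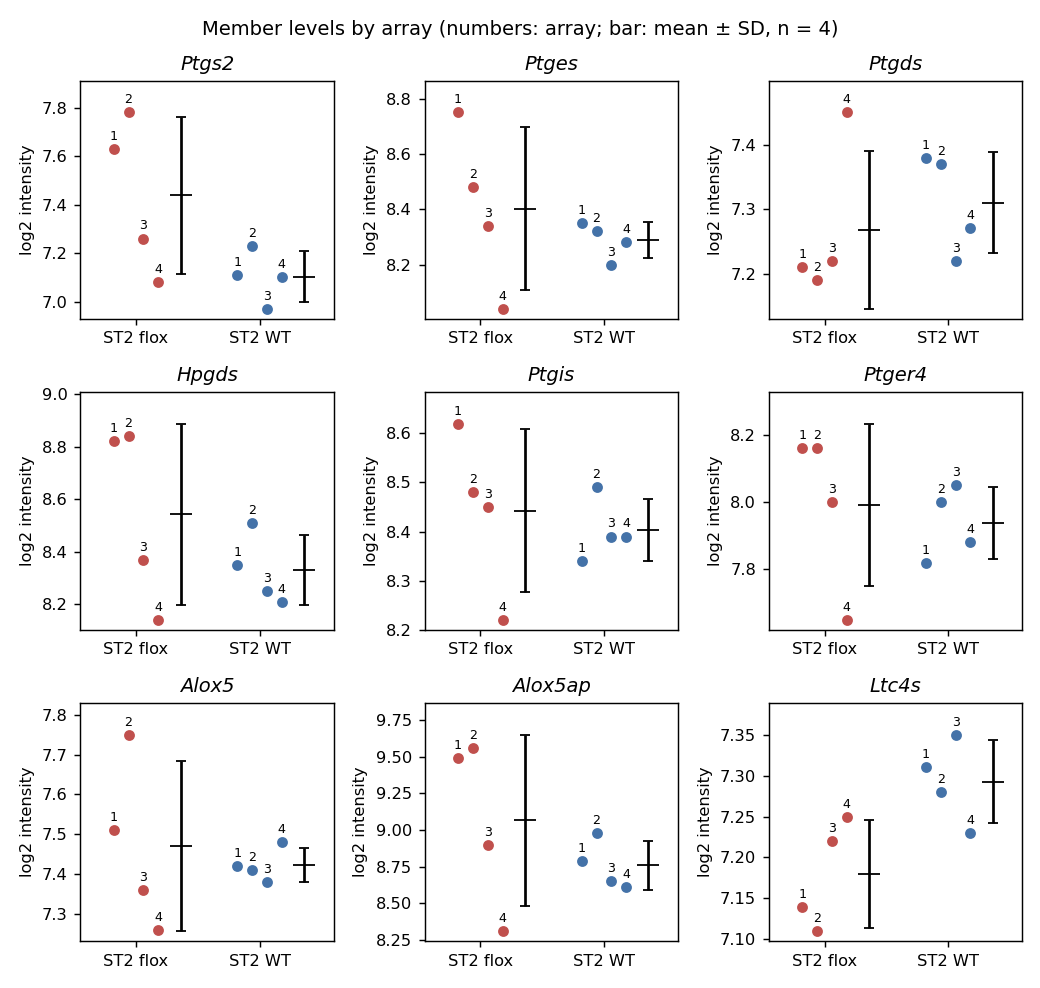
Log2 intensity of the 9 members in 4 ST2 flox arrays (left, red) and 4 ST2 WT arrays (right, blue), numbered by array, with the mean ± SD as a bar. Flox arrays 1 and 2 are highest and flox array 4 lowest or near lowest for most members, while the WT arrays lie close together.

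Ptgs2 encodes the inducible cyclooxygenase, the step that commits arachidonic acid to prostaglandins. On the log2 scale flox arrays 1 to 4 had 7.63, 7.78, 7.26 and 7.08, against 7.11, 7.23, 6.97 and 7.10 for WT arrays 1 to 4. Flox arrays 1 to 3 lay above every WT array, array 3 by little, and flox array 4 lay among them, so the groups overlapped. The means were 7.44 ± 0.32 in flox and 7.10 ± 0.11 in WT (SD, n = 4 each). The difference of 0.33 (SE 0.14, 1.26-fold, 95% interval 0.02 to 0.64) had an unadjusted limma p of 0.0369 and an adjusted p of 0.912. Leaving out flox array 2 gave 0.22, and leaving out flox array 4 gave 0.45.

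Ptges encodes the inducible prostaglandin E2 synthase, which is coupled to the cyclooxygenase of Ptgs2. Its level was 8.75, 8.48, 8.34 and 8.04 on flox arrays 1 to 4, against 8.35, 8.32, 8.20 and 8.28 on WT arrays 1 to 4. The flox arrays spread on both sides of the WT arrays, with 2 above and 1 below all of them. The difference between 8.40 ± 0.30 in flox and 8.29 ± 0.06 in WT (SD, n = 4 each) was 0.11 (SE 0.12, limma adjusted p 0.915), and it was -0.00098 without flox array 1. Ptger4, the prostaglandin E2 receptor that raises cyclic AMP, had levels of 8.16, 8.16, 8.00 and 7.65 on flox arrays 1 to 4. On WT arrays 1 to 4 it had 7.82, 8.00, 8.05 and 7.88. Here too flox arrays 1 and 2 lay above and flox array 4 below every WT array. The means were 7.99 ± 0.24 in flox and 7.94 ± 0.11 in WT (SD, n = 4 each), and the difference was 0.05 (SE 0.11, limma adjusted p 0.946).

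Prostaglandin D2 can be made by 2 unrelated enzymes. Their genes had mean differences of opposite sign, neither of them called. The sign for Ptgds was not stable, at 0.09 (SE 0.10) between the arrays numbered 3 and 4 alone. Hpgds, the hematopoietic synthase found in mast cells, macrophages and some T cells, was at 8.82, 8.84, 8.37 and 8.14 on flox arrays 1 to 4, against 8.35, 8.51, 8.25 and 8.21 on WT arrays 1 to 4. As for Ptgs2, flox array 2 was the highest of the 8 and flox array 1 came next. Flox array 4 lay below every WT array, which it did not for Ptgs2. The means were 8.54 ± 0.35 in flox and 8.33 ± 0.13 in WT (SD, n = 4 each). The difference was 0.21 (SE 0.15, 1.16-fold, 95% interval -0.12 to 0.54, limma adjusted p 0.912). Leaving out flox array 2 made it 0.11, and leaving out flox array 4 made it 0.35. Ptgds, the lipocalin-type synthase, was at 7.21, 7.19, 7.22 and 7.45 on flox arrays 1 to 4, against 7.38, 7.37, 7.22 and 7.27 on WT arrays 1 to 4. Flox array 4, the lowest for Hpgds, was the highest for Ptgds. Ptgds averaged 7.27 ± 0.12 in flox and 7.31 ± 0.07 in WT (SD, n = 4 each), and the difference was -0.04 (SE 0.07, limma adjusted p 0.932). It was -0.10 without flox array 4, -0.07 without WT array 3 and -0.02 without flox array 1 or 2 or WT array 1 or 2.

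Ptgis encodes prostacyclin synthase, an enzyme of vessel walls and fibroblasts. It was at 8.62, 8.48, 8.45 and 8.22 on flox arrays 1 to 4, against 8.34, 8.49, 8.39 and 8.39 on WT arrays 1 to 4. All of the WT arrays lay between the highest and the lowest flox array. Ptgis averaged 8.44 ± 0.16 in flox and 8.40 ± 0.06 in WT (SD, n = 4 each), and the difference was 0.04 (SE 0.08, 95% interval -0.14 to 0.22, limma adjusted p 0.947).

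In the leukotriene branch, Alox5ap (the 5-lipoxygenase activating protein, FLAP) varied most of all members. It stood at 9.49, 9.56, 8.90 and 8.31 on flox arrays 1 to 4, against 8.79, 8.98, 8.65 and 8.61 on WT arrays 1 to 4. The flox arrays spanned 1.25 log2 (mean 9.07 ± 0.58, SD, n = 4) and the WT arrays 0.36 (mean 8.76 ± 0.16, SD, n = 4). The difference of 0.31 (SE 0.24, 1.24-fold, 95% interval -0.22 to 0.83, limma adjusted p 0.912) became 0.14 when flox array 2 was left out and 0.56 when flox array 4 was. Alox5, the 5-lipoxygenase itself, was at 7.51, 7.75, 7.36 and 7.26 on flox arrays 1 to 4, against 7.42, 7.41, 7.38 and 7.48 on WT arrays 1 to 4. Its WT values were nearly equal, flox arrays 1 and 2 lay above them and flox arrays 3 and 4 below. Alox5 averaged 7.47 ± 0.21 in flox and 7.42 ± 0.04 in WT (SD, n = 4 each). Its difference was 0.05 (SE 0.09, limma adjusted p 0.946), and -0.05 without flox array 2.

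Ltc4s, the synthase of the first cysteinyl leukotriene, was the member with the lowest difference. It was at 7.14, 7.11, 7.22 and 7.25 on flox arrays 1 to 4, against 7.31, 7.28, 7.35 and 7.23 on WT arrays 1 to 4. Flox arrays 1 to 3 lay below every WT array, and flox array 4 lay between the lowest WT array and the rest. The means were 7.18 ± 0.06 in flox and 7.29 ± 0.05 in WT (SD, n = 4 each). The difference was -0.11 (SE 0.06, 0.93-fold, 95% interval -0.24 to 0.01), with an unadjusted limma p of 0.0753 and an adjusted p of 0.912. Over the fits without each array in turn it stayed between -0.13 and -0.09, the narrowest range of the 3 leukotriene genes.

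**Figure D2:**
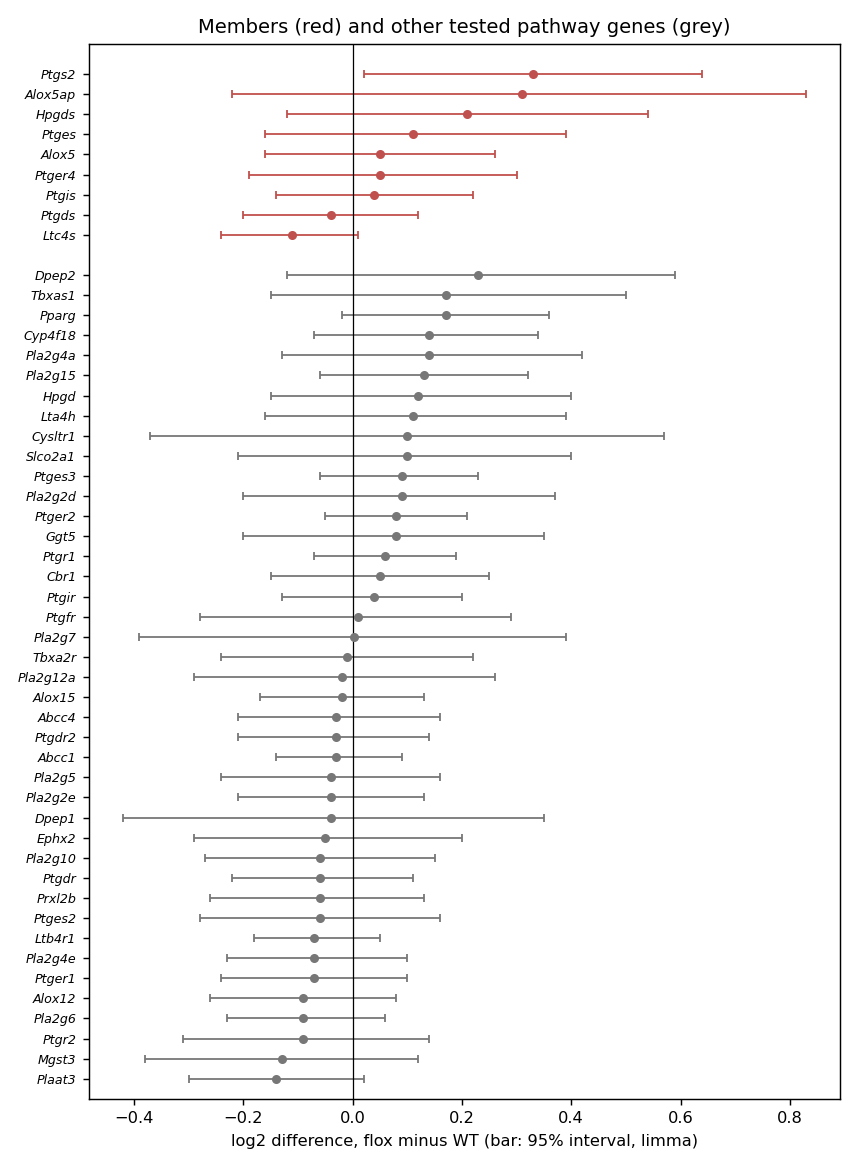
Log2 difference, flox minus WT, with limma's unadjusted 95% interval, for the 9 members (red, above) and the 41 other pathway genes tested (grey). The interval of Ptgs2, 0.02 to 0.64, lies above 0 and those of the other members include it.

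The members varied more among flox than among WT arrays. The SD over flox arrays exceeded that over WT arrays for 9 of 9 members, against 66.1% of all genes tested, and was more than 2 times as large for 7 of 9, against 31.0% of all genes. The median SD of the members was 0.24 in flox and 0.07 in WT, and over all genes it was 0.11 in flox and 0.08 in WT. Flox arrays 1 and 2 were both above every WT array for 6 of 9 members (19.4% of all genes) and flox array 4 was below every WT array for 6 of 9 (23.0% of all genes). These are descriptions of the same 8 arrays. The wide flox spread was therefore found over much of the array, and no test was run of whether the members stand out in it.

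Several members moved together from array to array, and r was above 0 for 22 of the 36 member pairs. Of the 36 member pairs, 17 had an exact permutation p for Pearson's r under 0.05 after Benjamini-Hochberg adjustment over the 36. The share among all gene pairs was not computed. High r was also seen outside the members. Of the 15007 genes tested, the number with r over 0.9 to a member ran from 44 for Ltc4s to 754 for Alox5ap. Hpgds and Alox5ap were closest, with r = 0.99 and rho = 1.00 over 8 arrays (exact permutation, p 2.48e-05 and 4.96e-05, adjusted p 8.93e-04 and 0.00179), and the p for r is the smallest that 40320 pairings can give. Ptgs2 had r = 0.95 with Hpgds and 0.93 with Alox5ap (exact permutation, p 0.00228 and 0.00188, adjusted p 0.0136 each), and rho was 0.90 with each (p 0.00456, adjusted p 0.0386, exact permutation). Without flox arrays 1 and 2, the arrays farthest from the median of the x-axis gene in these 3 pairs, r was 0.94 for Hpgds with Alox5ap, 0.68 for Ptgs2 with Hpgds and 0.66 for Ptgs2 with Alox5ap. Ltc4s ran against Ptgs2 (r = -0.92, exact permutation, p 0.00208, adjusted p 0.0136, and rho = -0.81, p 0.0218, adjusted p 0.0713), with r = -0.81 without flox array 2 and WT array 3. Ptgds ran against Ptger4 (r = -0.86 and rho = -0.86, exact permutation, p 0.00454 and 0.0107, adjusted p 0.0192 and 0.0386), with r = -0.55 without flox array 4 and WT array 1.

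**Figure D3:**
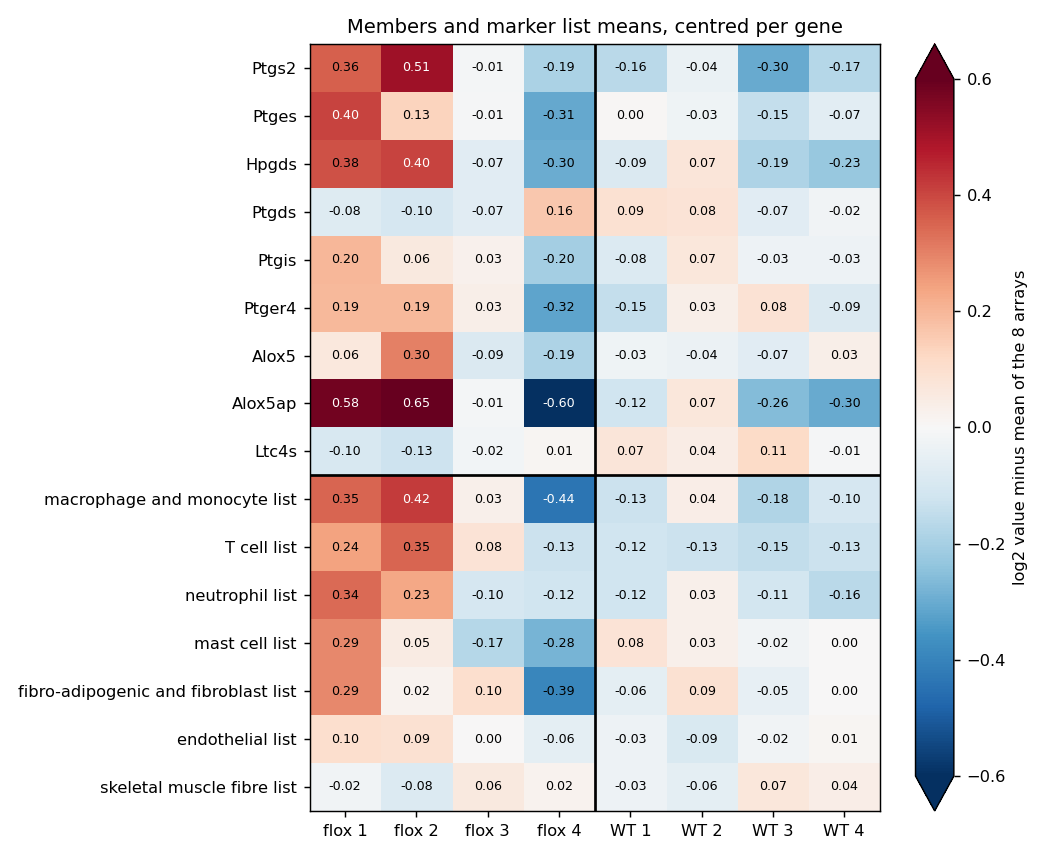
Log2 value minus the mean of the 8 arrays, for the 9 members (above the line) and for the mean over 7 marker lists (below it), with flox arrays on the left and WT arrays on the right. Alox5ap and Hpgds are highest on flox array 2 and lowest on flox array 4, as is the macrophage list at 0.42 and -0.44.

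Several of these enzymes are known from macrophages, and markers of macrophages and monocytes varied with the members from array to array. The centred mean over the 12 tested markers was 0.35, 0.42, 0.03 and -0.44 on flox arrays 1 to 4, against -0.13, 0.04, -0.18 and -0.10 on WT arrays 1 to 4. Of the 12, 11 had a higher mean in flox, 1 of them (Cd14, 0.24, SE 0.09) at an unadjusted limma p under 0.05, and 0 were called. Among all genes tested, the mean was higher in flox for 48.8%, and for 2.03% it was so at an unadjusted limma p under 0.05. In whole tissue, fewer cells of a type and less RNA per cell cannot be told apart.

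Across the 8 arrays, the macrophage list correlated with Alox5ap at r = 0.98 (rho = 0.93) and with Hpgds at r = 0.95 (rho = 0.93), each with an exact permutation adjusted p of 0.0117 for r and 0.0335 for rho, over 45 relations of 9 members with 5 lists. The exact permutation p before adjustment was 2.73e-04 and 5.21e-04 for r and 0.00223 for rho. With Ptgs2 it was r = 0.91 and rho = 0.93 (exact permutation, p 0.00174 and 0.00223, adjusted p 0.0195 and 0.0335). Flox arrays 2 and 4 lay farthest from the median of the list. Without them r was 0.97 for Alox5ap, 0.94 for Hpgds and 0.99 for Ptgs2. Flox array 1, high for the list (0.35) and for these genes, stayed in. How far the relations rest on the high flox arrays can therefore not be told from this. Ptges and Ptgis each had r = 0.89 and Ptger4 r = 0.88 with the list (exact permutation, p 0.00402, 0.00466 and 0.00372, adjusted p 0.0300 each). For Alox5 r was 0.84 (exact permutation, p 0.00677, adjusted p 0.0381). For Ltc4s and Ptgds r was -0.76 and -0.72 (exact permutation, p 0.0286 and 0.0445, adjusted p 0.0678 and 0.0835). Spearman's rho was 0.81 for Ptges, 0.86 for Ptgis, 0.74 for Ptger4, 0.74 for Alox5, -0.74 for Ltc4s and -0.76 for Ptgds, each with a permutation adjusted p of at least 0.0865. Without flox arrays 2 and 4, r was 0.93 for Ptges, 0.96 for Ptgis, 0.72 for Ptger4, 0.55 for Alox5, -0.87 for Ltc4s and -0.34 for Ptgds.

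**Figure D4:**
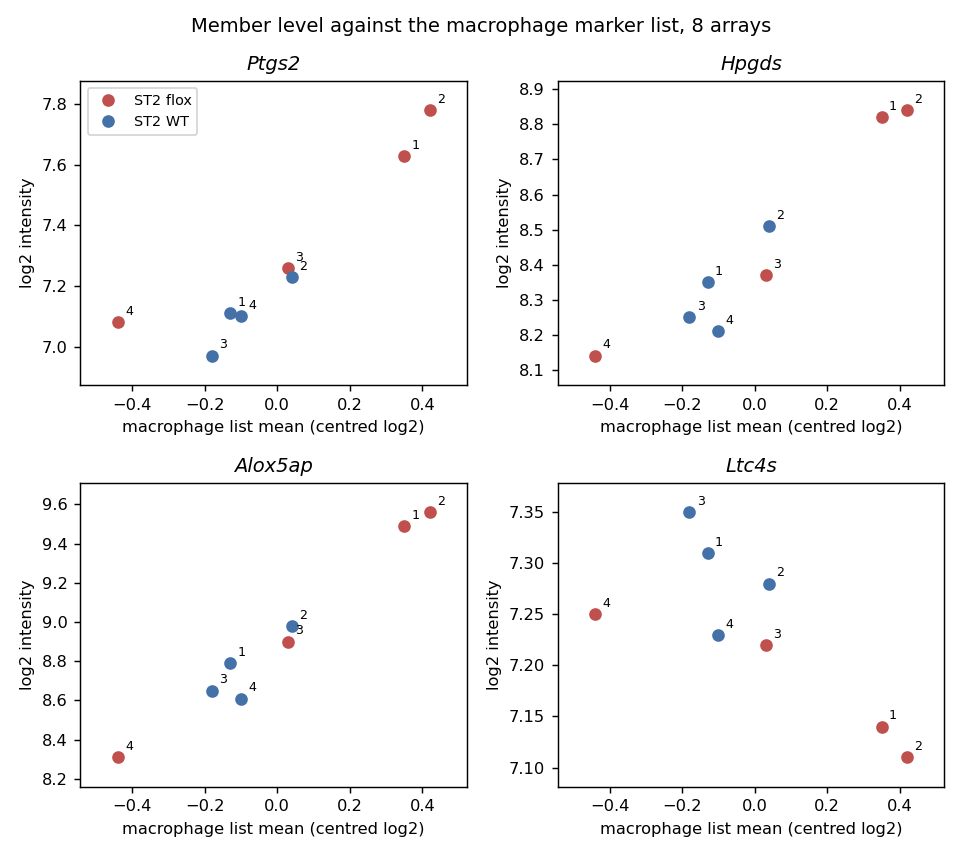
Log2 intensity of Ptgs2, Hpgds, Alox5ap and Ltc4s (y axes) against the centred mean over 12 macrophage and monocyte markers (x axes), 1 point per array, numbered, with ST2 flox in red and ST2 WT in blue. Ptgs2, Hpgds and Alox5ap increase with the list over both genotypes (r = 0.91, 0.95 and 0.98), and Ltc4s runs the other way (r = -0.76).

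With the macrophage list mean as a covariate, the difference of Alox5ap was 0.04 (SE 0.06) and that of Hpgds 0.05 (SE 0.07). That of Ptgs2 was 0.19 (SE 0.06, unadjusted limma p 0.0139, adjusted p 1.0), and that of Ltc4s -0.08 (SE 0.05). The differences of Ptges, Ptgis, Ptger4 and Alox5 were then -0.01, -0.03, -0.05 and -0.03. Over all genes, 572 of 15007 had an unadjusted p under 0.05 in that fit. The part of the macrophage signal in the members' differences was not tested further.

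With the other 4 lists compared (mast cell, fibroblast, endothelial and muscle fibre markers), 1 of 36 relations passed on Pearson's r after adjustment. The list of fibro-adipogenic and fibroblast markers correlated with Ptgis at r = 0.96 (rho = 0.90, exact permutation, p 9.18e-04 and 0.00456, adjusted p 0.0138 and 0.0513, r = 0.81 without flox arrays 1 and 4). This list had a centred mean of 0.29, 0.02, 0.10 and -0.39 on flox arrays 1 to 4, against -0.06 to 0.09 on the WT arrays. Other relations lay just above the threshold, so high r was not confined to the macrophage list. Among them Ptges had r = 0.86 with mast cell and 0.88 with fibroblast markers (exact permutation, adjusted p 0.0513 and 0.0602). Ptger4 had r = 0.83 with fibroblast markers (exact permutation, adjusted p 0.0513). Without flox arrays 1 and 4 these were 0.22, 0.33 and 0.31. Mast cell markers, a known site of Hpgds and Ltc4s, had a mean of 0.29, 0.05, -0.17 and -0.28 on flox arrays 1 to 4, against -0.02 to 0.08 on the WT arrays. Their r was 0.71 with Hpgds (rho 0.67, r 0.31 without flox arrays 1 and 4) and -0.31 with Ltc4s (rho -0.24), with an exact permutation p of 0.0443 and 0.464 for r and an adjusted p of 0.0835 and 0.486. Of the 9 mast cell markers, Tpsab1, Ms4a2 and Fcer1a lay below the filter. Of the T cell markers, 8 of 8 tested had a higher mean in flox, against 48.8% of all genes tested. Their mean was 0.24, 0.35, 0.08 and -0.13 on flox arrays 1 to 4 and -0.15 to -0.12 on the WT arrays. An unadjusted limma p under 0.05 was seen for 2 of them, Cd3g and Cd4, and with a higher mean for 2.03% of all genes. Cd3g (0.85, SE 0.28, adjusted p 0.912) had the largest difference of all genes tested. Cd4 differed by 0.20 (SE 0.08, adjusted p 0.912). Cd3d lay below the filter (-0.10, SE 0.08). Neutrophil means were -0.12 to 0.34 in flox and -0.16 to 0.03 in WT over 3 tested markers, with S100a8, Ly6g, Retnlg, Cxcr2, Mmp8 and Ngp below the filter. The part of T cells and neutrophils in the members' values was not tested. Foxp3, which marks the cells that express the Cre, had a difference of -0.01 (SE 0.08). The 4 regulatory T cell markers tested had a mean of -0.05 to 0.03 on the flox arrays and -0.07 to 0.07 on the WT arrays. Of them, 1 had a higher and 3 a lower mean in flox. Il2ra (0.19, SE 0.10) and Ctla4 (0.08, SE 0.09) lay below the filter.

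The differences were seen mainly among the samples with numbers 1 and 2. Between these arrays alone, flox minus WT was 0.53 for Ptgs2 (SE 0.09), 0.40 for Hpgds (SE 0.08) and 0.64 for Alox5ap (SE 0.09), with limma adjusted p of 0.0768, 0.0823 and 0.0720. Between the arrays numbered 3 and 4 it was 0.13 (SE 0.10), 0.02 (SE 0.10) and -0.03 (SE 0.18). For Ptger4 it was 0.25 over numbers 1 and 2 and -0.14 over numbers 3 and 4, and for Alox5 it was 0.21 and -0.12. The labels give these numbers no meaning, the subsets hold 2 arrays a group, and the difference between them was not tested. In the fit of numbers 1 and 2, 3595 of 15007 genes had an unadjusted limma p under 0.05, against 569 over all 8 arrays. Of the 9 members, 7 had such a p in that fit. Low p-values there were therefore seen for many other genes too, and whether the members stand out was not tested.

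**Figure D5:**
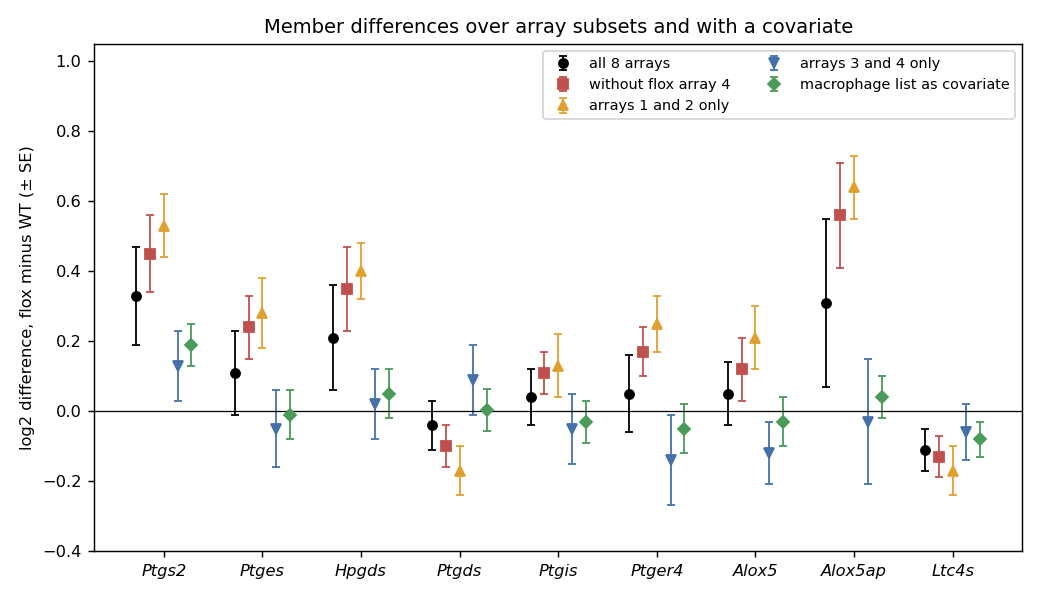
Log2 difference, flox minus WT, ± limma's SE for each member over all 8 arrays, without flox array 4, over arrays 1 and 2 only, over arrays 3 and 4 only, and with the macrophage list mean as a covariate. For Alox5ap the values are 0.64 over arrays 1 and 2 and -0.03 over arrays 3 and 4.

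Of 57 other eicosanoid genes listed, 51 had a row and 41 were tested. Of these 41, 0 passed the adjusted threshold and 0 had an unadjusted limma p under 0.05. The mean was higher in flox for 19 (48.8% of all genes) and lower for 22, with a median difference of -0.02. Flox array 4 was below every WT array for 17 of the 41 (23.0% of all genes). Flox arrays 1 and 2 were both above every WT array for 11 (19.4% of all genes).

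Among 11 phospholipases A2 tested, 4 had a higher and 7 a lower mean in flox. Pla2g4a, the cytosolic enzyme that supplies the cyclooxygenases, was at 8.03, 8.08, 7.86 and 7.44 on flox arrays 1 to 4, against 7.65 to 7.79 on the WT arrays (0.14, SE 0.12). It was named for this role after its values were seen. Pla2g7, the secreted hydrolase of platelet-activating factor, differed by 0.0024 (SE 0.17), Pla2g15, a lysosomal enzyme, by 0.13 (SE 0.09) and Plaat3, an adipocyte phospholipase, by -0.14 (SE 0.07).

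Among 5 other prostanoid synthases, Tbxas1, the thromboxane synthase of platelets and macrophages, was at 8.30, 8.23, 8.06 and 7.51 on flox arrays 1 to 4, against 7.79 to 7.90 on the WT arrays. Flox array 4 again lay below and the other flox arrays above every WT array, and the difference was 0.17 (SE 0.15). Ptges3, a co-chaperone with prostaglandin E synthase activity, differed by 0.09 (SE 0.06) and Cbr1, a carbonyl reductase that acts on prostaglandins, by 0.05 (SE 0.09). Of the 5 genes of breakdown and transport, Hpgd, which inactivates prostaglandin E2, differed by 0.12 (SE 0.13), Ptgr1 by 0.06 (SE 0.06) and Ptgr2 by -0.09 (SE 0.10). Each overlapped between the groups.

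Among 8 other receptors, Pparg, a nuclear receptor that binds prostaglandin derivatives, had the smallest p. It was at 9.09, 8.90, 8.68 and 8.80 on flox arrays 1 to 4, against 8.62 to 8.77 on the WT arrays (0.17, SE 0.09, unadjusted limma p 0.0776, adjusted p 0.912). Ptger2, the other cyclic AMP-raising receptor for prostaglandin E2, differed by 0.08 (SE 0.06), and Tbxa2r, the thromboxane receptor, by -0.01 (SE 0.10).

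Downstream of Alox5, Lta4h, which makes leukotriene B4, was at 8.64, 8.55, 8.40 and 7.97 on flox arrays 1 to 4, against 8.24 to 8.34 on the WT arrays (0.11, SE 0.12), and was also named for its role after its values were seen. Dpep2, a dipeptidase that converts leukotriene D4 to leukotriene E4, differed by 0.23 (SE 0.16) and its relative Dpep1 by -0.04 (SE 0.17). Cyp4f18, which inactivates leukotriene B4 in mouse leukocytes, differed by 0.14 (SE 0.09), and the exporter Abcc1 by -0.03 (SE 0.05). The cysteinyl leukotriene receptor Cysltr1 was at 8.47, 8.60, 8.06 and 7.42 on flox arrays 1 to 4, against 7.87 to 8.17 on the WT arrays (0.10, SE 0.21). Its values followed the order flox array 2, 1, 3 and 4 that Alox5ap had too. Ltb4r1, the leukotriene B4 receptor, differed by -0.07 (SE 0.05).

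Of the 10 pathway genes with a row below the filter, 2 had an unadjusted limma p under 0.05 in the fit of all 19752 genes without the filter, where 4.12% of genes did. Mgst2, a microsomal enzyme that can also make leukotriene C4, was at 6.26, 6.22, 6.33 and 6.34 on flox arrays 1 to 4, against 6.09, 6.19, 6.16 and 6.01 on WT arrays 1 to 4. Its groups did not overlap, which held for 2.1% of genes in that fit (0.17, SE 0.06, limma adjusted p 0.90). Alox8 was at 5.89 to 6.32 in flox and 6.30 to 6.41 in WT (-0.22, SE 0.09, limma adjusted p 0.90). Both were named after their values were seen, and their rows are dim, below log2 6.35 on average.

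For each member other genes followed its array pattern closely, and the members did not all share 1 pattern. Over the 8 arrays, the genes most like Alox5ap by Pearson's r were P2ry6 (0.994), Ms4a6d (0.992) and Cltc (0.991), and 754 genes had r over 0.9 with it. Those most like Hpgds were Fbxl5 (0.997), Gla (0.994) and Coro1b (0.991), and those most like Ptgs2 were Dennd4a (0.993), Tax1bp3 (0.992) and Tbc1d9 (0.987), with 658 and 472 genes over 0.9. For Ptges they were Scyl3 and Pik3r4 (0.991 each) and Arhgef3 (0.986), for Ptgis Icosl (0.981), Zfp638 (0.979) and Anpep (0.977), and for Ptger4 Bet1 (0.974), Apobec1 (0.969) and Mms19 (0.966). For Alox5 they were Atp6v1h (0.975), Seh1l (0.970) and Taf1 (0.969), and for Ptgds Gbx2 (0.995), Htr1b (0.978) and Kcns1 (0.975). For Ltc4s the closest were B3galt1 (0.972), Dhx37 (0.967) and Ccdc185 (0.965), and 44 genes were over 0.9. That count was 445 for Ptges, 248 for Ptgis, 132 for Ptgds, 120 for Ptger4 and 97 for Alox5. The r values given are the highest among 15007 and serve only to describe the patterns.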

How the data were processed

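The authors deposited 1 table of probeset intensity values on a linear scale, made with RMA in Affymetrix Power Tools per the submitters' processing notes. RMA corrects the background, aligns the arrays and summarises probes, and it compresses changes of dim rows. The software version, the genome build, slides and scan batches, and whether rows were filtered, were not given in the sources used here. Each sample was hybridised to 1 Affymetrix Mouse Gene ST array per the labels' protocols, after TriZol extraction and amplification. The number of arrays limits the precision.

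From the deposited intensity, log2 was taken without a pseudocount. Of 24922 rows, 21425 named 1 gene in the platform annotation, 1399 several and 2098 none, and only the first kind was used. Of these, 21347 matched a gene identifier in RefSeq GRCm38.p6. Rows with a mean below the 25th percentile (log2 6.35) were left out and the brightest row per gene kept, which left 15007 genes. A linear model with group as its only term was fitted in limma 3.58.1 (R 4.3.3), with Benjamini-Hochberg adjustment over all genes and a threshold of 0.05. The fit was run on simulated data with independent noise for each gene. Those data lack the array pattern that many genes share here, so the run cannot show how the fit behaves under it. Since separate animals are not stated, a p-value here reflects only how much these samples vary, and that variation may be technical. Correlations used all 40320 pairings of the 8 arrays. Marker list means are means of log2 values centred per gene.

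The members, gene lists and tests were chosen with earlier results of these data known, and the correlations between members and the 3 printed promoters after their values were seen. The genes named by rule were the members, in each pathway list the brightest 2 and the 2 with the smallest p, and for each member the 3 with the highest r. Pla2g4a, Lta4h, Mgst2 and Alox8 were named besides, after their values were seen. Single marker genes, such as Cd14, Cd3g and Cd4, were named outside this rule too.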

Additional observations from a re-analysis of the deposited data

Results flagged for a closer look

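The check covered 27 genes, the members and those named from the pathway lists by brightness or smallest p. Each was examined in 2 groups of 4 arrays. By Dixon's gap test at the 95% level, 3 values lay far from the other 3 of their group. Chance flags about 1 in 20 groups at that level. Ptgds, the lipocalin-type prostaglandin D2 synthase, was at 7.45 on flox array 4, against 7.19 to 7.22 on the other flox arrays. Tbxa2r, the thromboxane receptor, was at 7.51 on WT array 4, against 7.70 to 7.72 on the other WT arrays. Ltb4r1, the leukotriene B4 receptor, was at 6.36 on WT array 4, against 6.49 to 6.51 on the other WT arrays. WT array 4 is also the array with high skin keratins, and the part of that in these values was not tested.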

How the results depend on the processing

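Under every alternative run, 0 members and 0 other pathway genes passed the adjusted threshold, by limma or by the exact permutation test of 4 against 4 arrays. Among all genes 8 passed over sample numbers 1 and 2 and 2 without flox array 4, none of them a member. The median difference of the members was 0.05, 0.25 over numbers 1 and 2, -0.05 over numbers 3 and 4, -0.01 with the macrophage covariate, and -0.00098 to 0.17 without each array in turn. Ptgs2, Hpgds and Ltc4s kept their direction in each alternative that gave them a value. With the filter at the 50th percentile Ptgs2, Ptgds, Alox5 and Ltc4s dropped out. Over numbers 3 and 4 the sign turned for Ptges (-0.05), Ptgds (0.09), Ptgis (-0.05), Ptger4 (-0.14), Alox5 (-0.12) and Alox5ap (-0.03), and when the macrophage list mean was a covariate for Ptges (-0.01), Ptgds (0.0023), Ptgis (-0.03), Ptger4 (-0.05) and Alox5 (-0.03). The cause was not tested. Without each array in turn, Ptges ranged from -0.00098 to 0.24, Ptgis from -0.02 to 0.11, Ptger4 from -0.0028 to 0.17 and Alox5 from -0.05 to 0.12, each lowest without flox array 1 or 2 and highest without flox array 4. Of the 45 relations of members with marker lists, 8 passed on log2 values and 18 on deviations from the group means, whose permutation p is too small because the means were fitted. Same-numbered samples had deviations correlated at -0.00174, 0.352, 0.253 and 0.0422, so not every pair deviated together and the fit without the block was kept. Whether a number marks a shared batch was not tested. With the sample number as a replicate block, 0 members passed and Ptgs2 differed by 0.33 (SE 0.10, limma adjusted p 0.871).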
